A study of Arabidopsis thaliana with 6 samples.

Results

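The genes NDB2 (AT4G05020), NDB1 (AT4G28220) and AT2G21640 stand for alternative respiration and mitochondrial stress in Arabidopsis thaliana. They were found as every probe set that the array annotation pairs with one of these genes alone, which gave 3 genes with 1 probe set each, of 13356 genes so annotated through 13513 of the 22810 probe sets. All 3 passed the filter on low signal. The plants were whole Col-0 seedlings grown for 13 days in shaken liquid medium under a 16 h photoperiod, with 10 seedlings pooled in each flask of 100 ml. The TNT group received 60 µM of TNT (trinitrotoluene, an explosive) in 60 µl of the solvent dimethylformamide (DMF), and the control group received 60 µl of DMF alone, so that both groups carried the solvent. RNA was taken after 6 h, and each group has 3 samples on Affymetrix ATH1 arrays. Whether samples of 1 group came from separate flasks is not stated, so each p-value measures only how these samples scatter, and that scatter may be technical.

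Plant mitochondria can pass electrons around the proton-pumping steps of the respiratory chain. Alternative NAD(P)H dehydrogenases feed electrons into the ubiquinone pool without pumping protons, and alternative oxidase takes electrons from that pool directly to oxygen. The NDB enzymes sit on the outer face of the inner membrane and use cytosolic substrate: NDB2 is an NADH dehydrogenase stimulated by calcium, and NDB1 is a calcium-dependent NADPH dehydrogenase. NDB2 transcripts are known to rise together with those of alternative oxidase when the chain is blocked or the cell is under oxidative stress. AT2G21640, which the reference annotation lists by locus code alone, is widely used as a marker of mitochondrial oxidative stress.

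The array labelled TNT replicate 2 stood apart from the other TNT arrays. Across tested probe sets, as a description, its log2 signals correlated at 0.975 with DMF replicate 2, and at 0.888 and 0.906 with TNT replicates 1 and 3, which correlated at 0.969 with each other. Whether its label is right, or its seedlings took up or answered the dose, was not tested, and each value over all 6 arrays rests on that label. The results of the 3 genes are given over all 6 arrays and without that array, and the second basis was taken with the values known, so its p-values can be too small. The arrays were scaled to a common level, with median signals from 40.1 to 50.8. The brightest Bacillus control probe set of each array, taken as a floor for detection, lay between 6.34 and 14.3, and 0 of the 3 genes fell under it on any array. The log2 ratio of 3′ to 5′ ubiquitin signal, a measure of RNA integrity, lay between 1.60 and 1.70 with DMF and between 1.06 and 1.38 with TNT. The 25S rRNA control signal was 696.4 on DMF replicate 1 and 965.5 on TNT replicate 1, and lay between 13.7 and 39.4 on the other arrays. The part of either measure in the results was not tested. The number of arrays limits the precision.

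NDB2 lay within the range of the controls on TNT replicate 2, and above every control on TNT replicates 1 and 3. Its MAS5 signal was 47.8, 101.6 and 54.9 on DMF replicates 1, 2 and 3. With TNT it was 231.2, 85.9 and 221.8 on replicates 1, 2 and 3. The groups overlapped, because TNT replicate 2 lay below DMF replicate 2, while TNT replicates 1 and 3 lay above all DMF arrays. Such non-overlap of the full groups, in either direction, was seen in 12.3% of tested probe sets, and TNT replicates 1 and 3 lay above all DMF arrays in 18.8%. On the log2 scale the level was 6.01 ± 0.58 (SD, n = 3) with DMF and 7.36 ± 0.81 (SD, n = 3) with TNT.

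Over all 6 arrays the log2 difference of NDB2 was 1.35 ± 0.43 (SE), a 2.55-fold ratio, with a limma adjusted p of 0.514 and an unadjusted p of 0.0143. It did not pass, as 0 of 13648 probe sets did (0%), while 1195 had an unadjusted p under 0.05. Without TNT replicate 2 NDB2 rose 3.52-fold, with a log2 difference of 1.81 ± 0.31 (SE, 95% interval from 1.10 to 2.52) and a limma adjusted p of 0.0149. In that comparison 3.69% of probe sets rose and 3.25% fell. With the replicate number as a block the calls there numbered 3733 in place of 947, on 1 residual degree of freedom. DMF replicate 2 has no partner in that fit and does not enter the difference. NDB2 there had a log2 difference of 2.14, as without both arrays numbered 2, and a limma adjusted p of 8.97e-08. The call of NDB2 at 1.81 was made without the block. The call rests on both remaining TNT arrays: without TNT replicate 1 the adjusted p was 0.129, and without TNT replicate 3 it was 0.102, with the spread of the lone TNT array taken from the controls.

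The controls of NDB2 were themselves uneven. The SD of its 3 DMF log2 signals exceeded that of 93.9% of tested probe sets, whose median SD was 0.22. The DMF replicate 2 array held the high value, and TNT replicate 2 shared it: both arrays numbered 2 lay between the other DMF arrays and the other TNT arrays. Between arrays of the same number, TNT minus DMF was 2.27, -0.24 and 2.01 on the log2 scale for replicates 1, 2 and 3. Without both arrays numbered 2 the log2 difference was 2.14, with a limma adjusted p of 0.000876.

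AT2G21640 had nearly the same course over the arrays. In the order of the replicate numbers, its signal was 60.1, 86.5 and 71.5 with DMF. The TNT arrays gave 312.9, 85.8 and 298.6. The TNT replicate 2 value lay just under the highest control, and both other TNT values exceeded every control. Its controls were tighter than those of NDB2, at a log2 level of 6.17 ± 0.26 (SD, n = 3), against 7.64 ± 1.06 (SD, n = 3) with TNT. The TNT spread exceeded that of 98.3% of tested probe sets.

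For AT2G21640 the log2 difference over all 6 arrays was 1.48 ± 0.47 (SE), a 2.78-fold ratio that did not pass in limma (adjusted p = 0.514, unadjusted p = 0.0137). Without TNT replicate 2 it rose 4.25-fold, with a log2 difference of 2.09 ± 0.19 (SE, 95% interval from 1.65 to 2.53) and a limma adjusted p of 0.0011. When TNT replicate 1 was left out as well, the log2 difference was 2.05, and when TNT replicate 3 was, it was 2.12. Each of these fits leaves a lone TNT array, whose spread is taken from the controls, so neither shows how firm the call is. By replicate number the log2 differences were 2.38, -0.01 and 2.06.

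NDB1 did not pass on either basis. The DMF arrays gave signals of 70.0, 49.5 and 64.7 in order. The TNT arrays gave 64.8, 57.6 and 55.6. Every TNT value lay inside the range of the controls. Over all 6 arrays limma gave a log2 difference of -0.04 ± 0.20 (SE) at an adjusted p of 0.977. Its 95% interval, from -0.49 to 0.42, allows ratios from 0.712 to 1.33, so a change larger than these lies outside it and smaller changes do not. Leaving out TNT replicate 2, the difference was -0.02 ± 0.22 (SE), with an interval from -0.52 to 0.49. The sign of so small a difference turned in several alternatives, with quantile normalization giving 0.053 and median centring 0.056 in the comparison without TNT replicate 2.

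**Figure D1:**
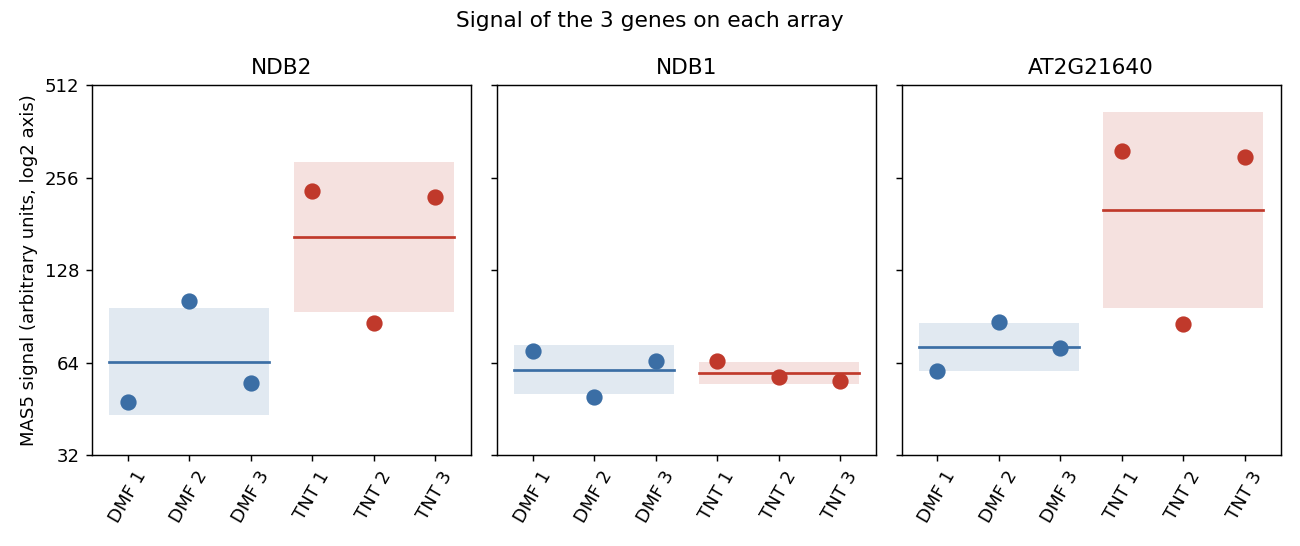
MAS5 signal (log2 axis) of NDB2, NDB1 and AT2G21640 on each array, with points for single arrays (blue DMF, red TNT), lines for group means of log2 signals and bands for 1 SD (n = 3). NDB2 and AT2G21640 are high on TNT replicates 1 and 3 (221.8 to 312.9) and not on TNT replicate 2 (85.9 and 85.8), and NDB1 lies between 49.5 and 70.0 throughout.

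The external dehydrogenase genes NDB2 and NDB1 were compared within each array, where scaling cancels. The log2 signal of NDB2 minus that of NDB1 was -0.55, 1.04 and -0.23 on DMF replicates 1, 2 and 3. With TNT it was 1.83, 0.58 and 2.00. TNT replicate 2 lay below DMF replicate 2 again, so the groups overlapped. The mean difference between groups was 1.39 over all 6 arrays and 1.83 without TNT replicate 2. By replicate number, TNT minus DMF was 2.39, -0.46 and 2.23. The exact two-sided permutation p over all 6 arrays, without pairing, was 0.2. As 3 against 3 arrays cannot give less than 0.1, this test could not pass at 0.05. An exact sign-flip test of the 3 differences by replicate number gave a p of 0.5, and could not pass at 0.05 either. The difference between groups sets the change of NDB2 against that of NDB1, and says nothing of which transcript is more abundant.

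The other dehydrogenase genes of the family did not pass over all 6 arrays. NDB4, an external NADH dehydrogenase, had signals of 1.87, 5.27 and 2.33 on DMF replicates 1, 2 and 3, all under the Bacillus floor. On TNT replicates 1, 2 and 3 its signal was 78.0, 2.79 and 62.2, so that it was detected above the floor on the same TNT arrays on which NDB2 was high, and on no other. It was under the filter on low signal. Against the mean log2 floor of the DMF arrays, the mean of TNT replicates 1 and 3 was at least 7.39-fold higher. No bound is given over all 6 arrays, since TNT replicate 2 was itself under its floor. The limma adjusted p without the filter was 0.00359 without TNT replicate 2 and 0.702 over all 6 arrays, and both belong to deposited values under the floor, not to the bound.

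NDB3, a further gene of the external group, was above the floor but under the filter. The DMF arrays gave signals of 18.5, 27.8 and 14.8, and the TNT arrays 20.4, 31.1 and 27.4. The groups overlapped, and the log2 difference was 0.40 over all 6 arrays and 0.26 without TNT replicate 2 (limma adjusted p = 0.960 and 0.825 without the filter). NDC1, a dehydrogenase found in both mitochondria and plastids, lay lower on TNT replicates 1 and 3. Its signal was 108.7, 123.4 and 123.6 with DMF and 77.0, 115.7 and 76.0 with TNT. Neither the log2 difference over all 6 arrays, -0.43 at a limma adjusted p of 0.600, nor that of -0.63 at 0.0580 without TNT replicate 2 passed. Of the 18 genes of the alternative respiration list, these 5 are paired alone with a probe set, and 3 of them were tested: 0 passed over all 6 arrays, and 1 rose, 0 fell and 2 did not pass without TNT replicate 2. Over all probe sets, 0% passed over 6 arrays, and 3.69% rose and 3.25% fell without TNT replicate 2. Alternative oxidases, internal dehydrogenases and uncoupling proteins were not analysed here.

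**Figure D2:**
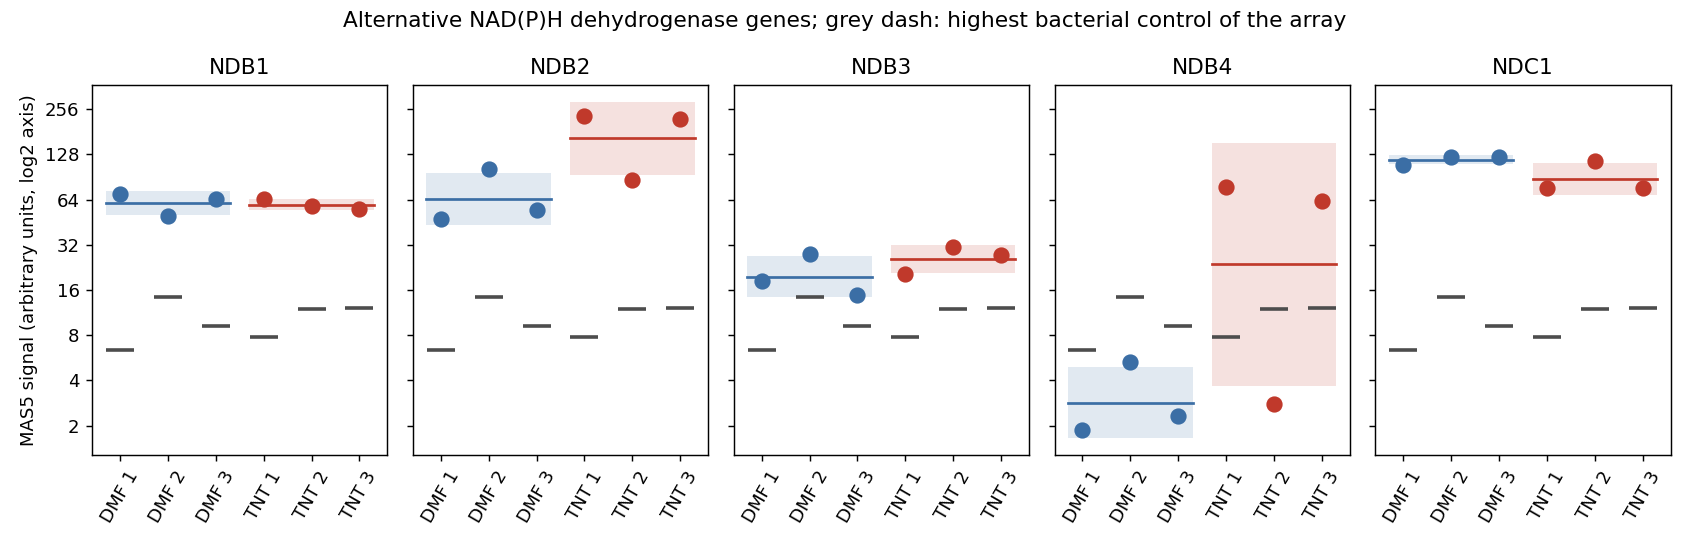
MAS5 signal (log2 axis) of 5 alternative dehydrogenase genes on each array, with points for arrays (blue DMF, red TNT), lines and bands for the group mean of log2 signals and 1 SD (n = 3), and grey dashes for the highest Bacillus control of each array. NDB4 is under the dash on all DMF arrays and on TNT replicate 2, and reaches 78.0 and 62.2 on TNT replicates 1 and 3, while NDC1 lies at 77.0 and 76.0 there.

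The differences of NDB2 and AT2G21640 stood far up among all tested probe sets. Over all 6 arrays NDB2 ranked 122 and AT2G21640 ranked 100 of 13648 by log2 difference, and NDB1 ranked 7300. The ranks without TNT replicate 2 were 121, 78 and 6507. By unadjusted limma p, NDB2, AT2G21640 and NDB1 ranked 370, 354 and 11948 over all 6 arrays. Without TNT replicate 2 these ranks by p were 354, 62 and 13140. The 3 genes were chosen with earlier results of these data known, so their ranks are no independent evidence. Within an array, NDB2 stood above 53.7% to 70.0% of non-control probe sets on the DMF arrays and above 86.7% and 86.3% on TNT replicates 1 and 3, with 65.4% on TNT replicate 2. AT2G21640 stood above 58.9% to 65.4% with DMF, above 90.5% and 90.1% on TNT replicates 1 and 3, and above 65.4% on TNT replicate 2. The median log2 difference of all tested probe sets was -0.02 over 6 arrays and -0.04 without TNT replicate 2.

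**Figure D3:**
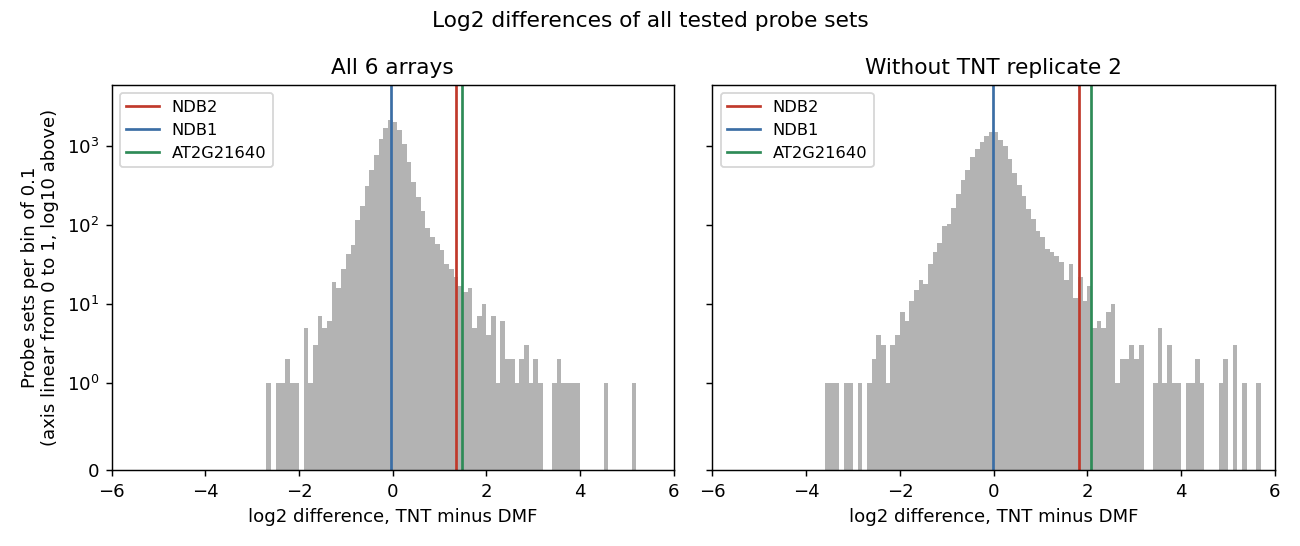
Number of tested probe sets per bin of 0.1 in the log2 difference TNT minus DMF (vertical axis linear from 0 to 1 and log10 above), over all 6 arrays on the left and without TNT replicate 2 on the right, with lines for the 3 genes. NDB1 lies at the centre (-0.04 and -0.02), and NDB2 and AT2G21640 lie in the right tail (1.35 and 1.48, then 1.81 and 2.09).

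Other genes known to respond to mitochondrial dysfunction were mostly high on the same arrays. Of 17 genes listed, 8 have a probe set of their own, AT2G21640 among them, and all 8 were tested. None passed over all 6 arrays in limma, and 7 had a positive difference. An unadjusted p under 0.05 was seen in 5, beside 1195 of all 13648 tested probe sets. With TNT replicate 2 left out, 6 rose, 0 fell and 2 did not pass, beside 3.69% of all probe sets that rose. The median log2 difference was 2.05 over all 6 arrays and 2.65 without TNT replicate 2, beside -0.02 and -0.04 for all probe sets. The list was written with earlier results of these data known, and GSTU25 and AT2G21640 had already been seen to rise, so the count is no independent evidence.

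The locus AT5G51440 gave 29.0, 89.8 and 27.3 on the DMF arrays and 276.5, 102.6 and 212.5 on the TNT arrays. All 3 TNT values exceeded all controls, and both arrays numbered 2 again lay between the others, as for NDB2. AT5G51440 rose 5.85-fold without TNT replicate 2 (limma adjusted p = 0.0219), beside a log2 difference of 2.14 over all 6 arrays that did not pass (0.476). GSTU25, an enzyme that joins glutathione to TNT, gave DMF signals of 10.5, 18.2 and 15.9 and TNT signals of 477.8, 27.4 and 528.9. In the comparison without TNT replicate 2 it rose by a log2 difference of 5.12, beside 3.72 over all 6 arrays (limma adjusted p = 0.477). AT5G43450 rose 6.69-fold without TNT replicate 2 (limma adjusted p = 0.000482), and its log2 difference over all 6 arrays was 1.96 (0.514).

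The largest difference among the 8 was that of AT2G41730, named after its values were seen, at 32.9, 22.4 and 27.5 with DMF and 1330, 36.1 and 1356 with TNT. Its probe set is of the type marked as able to share probe sequence with other transcripts. AT2G04050, also named after its values were seen, rose by a log2 difference of 4.15 without TNT replicate 2, beside 2.56 over all 6 arrays (limma adjusted p = 0.585). For AT2G41730 these differences were 5.62 and 3.88 (limma adjusted p = 2.1e-05 and 0.514). The genes that did not pass on either basis were AT5G09570, at 0.42 without TNT replicate 2 and 0.25 over all 6 arrays, and AT5G64400, at 0.01 and -0.08. In AT5G09570 the highest signal of all was that of DMF replicate 2 (74.7), above the 63.2 and 69.7 of TNT replicates 1 and 3.

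Genes listed under cytochrome pathway and carriers showed small differences. Of 18 genes listed, 5 were tested, and 0 passed in limma on either basis. These 5 are genes of succinate dehydrogenase and cytochrome c, and only those of cytochrome c belong to the cytochrome pathway itself. All 5 differences were positive over all 6 arrays, with a median of 0.12 on the log2 scale, and of 0.28 without TNT replicate 2. The medians of all tested probe sets were -0.02 and -0.04. Of the 5 genes, those with the smallest p over all 6 arrays were CYTC-2 (AT4G10040) at 0.44 and CYTC-1 (AT1G22840) at 0.26, both cytochrome c genes. The succinate dehydrogenase genes SDH1-1 (AT5G66760) and SDH2-1 (AT3G27380) stood at 0.12 and 0.10. Without TNT replicate 2 these 4 genes stood at 0.30, 0.41, 0.28 and 0.26. A second SDH2-1 probe set was under the filter, with signals from 1.03 to 16.6. It stood at -0.48 over all 6 arrays and -1.48 without TNT replicate 2. CYTC-1 signals were 1131, 1106 and 1272 with DMF and 1510, 1141 and 1597 with TNT, so that TNT replicates 1 and 3 lay above the controls, with a limma adjusted p of 0.141 without TNT replicate 2.

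Mitochondrion-encoded subunits of complex I (nad) and complex IV (cox) did not pass in either direction. Among 11 tested probe sets with these symbols, chosen by symbol once the annotation was in hand, the log2 differences over all 6 arrays ran from -0.37 to 0.37 with a median of -0.03. Some of these probe sets share the symbol nad1 or nad5, so they stand for fewer genes. Their median without TNT replicate 2 was -0.18, and 0 rose and 0 fell. Of 6 mitochondrial antioxidant and chaperone genes, 2 were tested and neither passed: PRXIIF (AT3G06050), a mitochondrial peroxiredoxin, at 0.19 over all 6 arrays and 0.32 without TNT replicate 2, and TRXO1 (AT2G35010), thioredoxin O1, at -0.07 and -0.0076. None of the 11 listed regulators of mitochondrial retrograde signalling, such as the membrane-bound NAC factors, was analysed here.

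**Figure D4:**
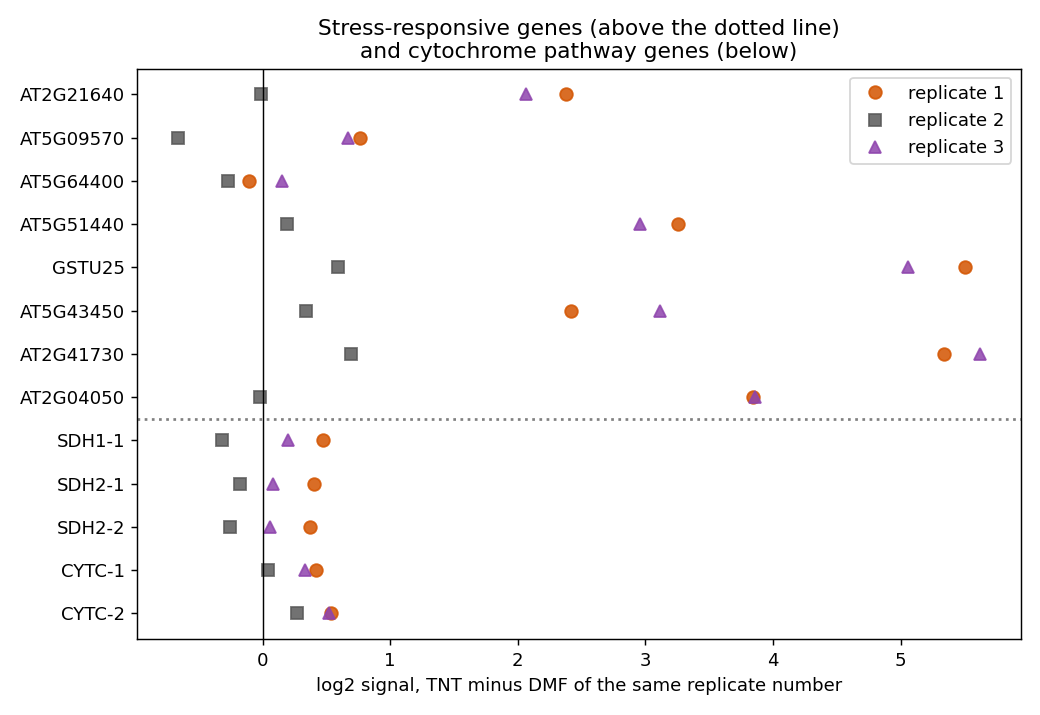
Log2 signal of each TNT array minus that of the DMF array with the same replicate number, for the 8 stress-responsive genes (above the dotted line) and the 5 succinate dehydrogenase and cytochrome c genes (below). For replicate 2 (squares) AT2G21640 stands at -0.01, against 2.38 and 2.06 for replicates 1 and 3, and the 5 genes below the line lie between -0.32 (SDH1-1, replicate 2) and 0.53 (CYTC-2, replicate 1).

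The genes most like each member were ranked by the Pearson correlation of log2 signals over the 6 arrays, among tested probe sets paired with 1 gene. The measure is descriptive, and for NDB2 and AT2G21640 it is set largely by the high values of TNT replicates 1 and 3. AT1G43910 was nearest to NDB2 (r = 0.996), at 40.2, 84.3 and 44.0 on the DMF arrays and 230.2, 72.0 and 181.1 on the TNT arrays. It shared with NDB2 the raised values of both arrays numbered 2. AT3G62860, AT3G55640, AT3G44190 and AT5G38900 followed, at 0.990, 0.988, 0.987 and 0.987.

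For AT2G21640 the nearest gene was OCT5, an organic cation transporter gene (r = 0.998). Its signals were 48.2, 64.0 and 53.9 with DMF and 253.1, 67.0 and 264.9 with TNT. AT1G14130, GSTU25, AT5G42050 and AT3G09405 came next, at 0.997, 0.996, 0.996 and 0.995. NDB2 and AT2G21640 correlated at 0.967 with each other, and NDB1 at -0.36 with NDB2 and -0.14 with AT2G21640. NDB1 was nearest to AT4G30825, AT1G47830, AT3G48570, AT5G49760 and AT2G34585 (r from 0.975 to 0.990), all of which had their lowest DMF signal on replicate 2.

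The genes next to NDB2 and AT2G21640 on the chromosome were read by their order in the TAIR10.1 annotation. AT4G05030, beside NDB2, and AT2G21655, 2 places beyond AT2G21640, were under the filter and under the Bacillus floor on every array. Their log2 differences were 0.19 and 0.89 over all 6 arrays, and 0.47 and 0.96 without TNT replicate 2. AT4G05040, 2 places beyond NDB2, had a log2 difference of -0.01 over all 6 arrays and -0.18 without TNT replicate 2, and AT2G21630, beside AT2G21640, of 0.04 and 0.10. RD2 (AT2G21620), 2 places from AT2G21640, rose without TNT replicate 2 by a log2 difference of 0.99 (limma adjusted p = 0.0133), and stood at 0.62 over all 6 arrays (0.613). Its signals were 407.2, 312.8 and 377.2 with DMF and 694.5, 332.4 and 754.3 with TNT.

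Markers of leaf and root were checked, since RNA came from whole seedlings, where fewer cells of a type and less RNA per cell cannot be told apart. Both tissues were represented: PRK (AT1G32060), a Calvin cycle enzyme of green tissue, had signals from 1524 to 1884 with DMF, and PYK10 (AT3G09260), an abundant root glucosidase, from 2690 to 3339. PRK, the 1 tested leaf marker of 7, fell by a log2 difference of -0.71 with TNT replicate 2 left out (limma adjusted p = 0.0341). Of 4 tested root markers, EXPA18 (AT1G62980), a root hair expansin, fell likewise, by -1.35 (limma adjusted p = 0.0126) and 3 did not pass, with EXPA7 (AT1G12560) at -1.22, PYK10 at 0.01 and AGL42 (AT5G62165) at -0.07. These counts stand beside 3.25% of all probe sets that fell. Over all 6 arrays 0 of these markers passed in limma: PRK stood at -0.54 (adjusted p = 0.519), EXPA18 at -1.06 (0.476), EXPA7 at -0.87 (0.565), PYK10 at -0.07 and AGL42 at 0.04. The part of tissue shares in the differences of NDB2 and AT2G21640 was not tested.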

How the data were processed

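The authors deposited an intensity on a linear scale for each probe set. MAS5 and GCOS are named for it in the submitters' processing notes, with versions not given in the sources used here. MAS5 spreads low signals widely on a log scale, and scaling to a common level (trimmed mean 100.01 on each array) hides changes in total RNA. Of 22810 probe sets, 64 controls were left out, and 13513 are paired with 1 gene, 503 with several and 8730 with none here. Names come from the TAIR10.1 gene table. No sequence is printed, as none was used here.

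Log2 signals were tested in the 13648 probe sets at or above the 40th percentile of mean signal, with limma 3.58.1 in R 4.3.3 (lmFit, eBayes with trend, two-sided, Benjamini-Hochberg over all tested, threshold 0.05). The fit was run on simulated data with independent noise of equal spread on every array. Those data held no outlying array and no link between same-numbered arrays, so they do not cover these features here. The fit without the filter gave the values of genes under it. Replicate numbers came from titles, and 1 TNT title without a number was called replicate 1. Same-numbered arrays deviated from their group means together (correlations 0.54, 0.47 and 0.43), though no label gives the origin of the pairing. Deviations cancel within a group, so these correlations depend on one another and are not separate evidence for each pair. The replicate numbers served as pairs only in the replicate block, the differences by replicate number and their sign-flip test. All other limma fits and the permutation test over arrays left the pairing out.

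Members and lists were chosen with earlier results of these data known. Named genes were the members, the alternative respiration list, up to 4 tested genes of each other list by p over 6 arrays, and the 5 most alike per member. Alternatives were filters, an offset of 16, quantile normalization, median centring, no trend, array weights, the replicate block and arrays left out.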

Additional observations from a re-analysis of the deposited data

How the results depend on the processing

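Over all 6 arrays NDB2 and AT2G21640 kept a positive difference in all 15 alternatives each, and did not pass in 12. They passed with array weights (log2 differences 1.90 and 1.97), without both arrays numbered 2 (2.14 and 2.22) and without TNT replicate 2. With single arrays left out NDB2 ranged from 1.10 to 1.81 and AT2G21640 from 1.15 to 2.09, and over all alternatives their adjusted p ranged from 0.000876 and 0.000731 to 0.999. The weights were 0.26 on TNT replicate 2 and 5.00 on DMF replicate 3. With the replicate block neither passed (adjusted p = 0.261 and 0.234), at differences of 1.35 and 1.48, and the block ended no call of the 3 genes. NDB1 ranged from -0.18 to 0.065 with single arrays left out, turning sign without DMF replicate 1 (0.065), DMF replicate 3 (0.0081) or TNT replicate 3 (0.0089), and passed in none of 14 alternatives. It was under the 60th percentile filter.

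The count of 0 calls became 2896 with array weights and 1374 without both arrays numbered 2, and ranged from 0 to 947 with single arrays left out. Without TNT replicate 2 the 947 calls became 2897 with array weights and 3733 with the replicate block, and ranged from 179 (without TNT replicate 1) to 1374 (without DMF replicate 2), with 202 without TNT replicate 3 and 386 without DMF replicate 3. There AT2G21640 passed in all 13 alternatives, and NDB2 in 11, ranging from 1.60 to 2.14 with single arrays left out. The alternatives without TNT replicate 1 or 3 leave a lone TNT array, with its spread taken from the controls. NDB1 turned to 0.053 with quantile normalization and 0.056 with median centring, and ranged from -0.16 to 0.094 with single arrays left out. NDB2 minus NDB1 kept its sign in 10 of 10. The cause of these changes was not tested.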
